A study of Drosophila melanogaster with 8 samples.

Results

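The transcripts described here are those of the mitochondrial genome of Drosophila melanogaster, taken as every gene of the deposited count tables whose FlyBase symbol begins with mt:. There were 37 such genes among 15682 in all, of which 13 encode proteins, 2 are ribosomal RNA (rRNA) genes and 22 are transfer RNA (tRNA) genes. RNA was measured by strand-specific sequencing in ovaries of flies aged 4 to 6 days, in 4 groups of 2 libraries. The piwi mutant libraries came from piwi1/piwi2 flies, which carry a pair of mutant alleles of piwi, a gene of the transposon-silencing piRNA pathway. Their control carried the germline driver nos-GAL4-VP16, which the label of the mutants does not give. The RnpS1 knockdown libraries carried dsRNA-RnpS1 with tj-GAL4, a driver of somatic follicle cells, and shRNA-RnpS1 with nos-GAL4-VP16, against RnpS1, a subunit of the exon junction complex. Control flies for this knockdown carried tj-GAL4 and nos-GAL4-VP16 and no hairpin. The 2 controls therefore differ in genotype. The question put to these transcripts was whether either loss, of piwi or of RnpS1, went with a change in their level.

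The mitochondrial genome is a small circle of DNA, present in many copies per cell and inherited through the egg. It encodes core subunits of the respiratory chain and of ATP synthase, with the rRNAs and tRNAs needed to translate them inside the organelle, and all other mitochondrial proteins are imported from the cytoplasm. Both of its strands are transcribed as long precursors, and most mRNAs are released by cutting out the tRNAs that lie between them. Oocytes and nurse cells build up large stores of mitochondria, so the ovary is a tissue in which these transcripts are abundant.

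The depth of a library, as the total of its gene counts, was 46683566 and 50940588 for piwi mutants and 37426999 and 47294459 for their controls. For RnpS1 knockdown it was 75869953 and 86692865, and for its control 75113449 and 48470348. As a check of the labels, piwi had 202 and 193 CPM (counts per 1000000 gene counts of a library) in the piwi mutant libraries, against 316 and 312 CPM in their controls. It was also lower in RnpS1 knockdown, with 189 and 156 CPM against 414 and 337 CPM in the control of that series (log2 fold change -1.24, edgeR adjusted p = 0.0149), so lower piwi is common to both series. RnpS1 had 8.75 and 3.78 CPM in the knockdown libraries, against 45.0 and 39.6 CPM in their controls. The 4 germline markers measured (osk, aub, bam and otu) summed to 2168 to 3322 CPM over the 8 libraries, with the piwi mutants lowest, and the 4 follicle cell markers (tj, Fas3, slbo and mirr) to 76.9 to 140 CPM, with none of these 8 at 0 in any library. Reads aligned to more than 1 place were left out of the gene counts by the authors. They came to 66.0% and 64.6% of the reads or alignments recorded in the piwi mutant libraries and 51.4% and 43.2% in their controls, and in the RnpS1 series to 65.6% and 50.3% with knockdown and 44.9% and 65.3% without. Their part in the results was not tested. Nothing in the labels states that libraries of 1 group came from separate animals. All p-values therefore describe the spread between these libraries alone, which may be technical.

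The mitochondrial genes took a few percent or less of all gene counts, and libraries of 1 group differed by about as much as groups did. Their share was 2.76% and 1.93% of gene counts in the piwi mutant libraries, against 1.20% and 1.92% in their controls. In the RnpS1 series it was 3.13% and 1.46% in the knockdown libraries, against 1.79% and 0.839% in their controls. The piwi mutant mean of 2.34% ± 0.585 stood above the control mean of 1.56% ± 0.514 (SD, n = 2 each), with the lower mutant library just above the higher control. These nearest libraries changed order with reads outside genes and ambiguous reads added to the denominator, so that the groups overlapped. The means were then 2.11% in piwi mutants and 1.43% in their controls. Scaling by the TMM normalization factors that the edgeR fit uses also reversed the order of these nearest libraries. The RnpS1 knockdown mean of 2.30% ± 1.18 and its control mean of 1.31% ± 0.670 (SD, n = 2 each) came from libraries that overlapped. A two-sided exact permutation test of 2 libraries against 2 cannot pass a threshold of 0.05, so no p is given for these sums. In RNA of whole ovaries, fewer cells of a type and less RNA per cell cannot be told apart.

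Most of these counts came from 1 gene. The large rRNA, mt:lrRNA (FBgn0013686), the structural RNA of the large subunit of the mitochondrial ribosome, made up 82.7% to 89.8% of mitochondrial counts over the 8 libraries. The small rRNA, mt:srRNA (FBgn0013688), of the small ribosomal subunit, is transcribed from the same strand, yet had far fewer counts: per length, mt:lrRNA stood 147 to 1517 times above it. The labels' protocol has ribosomal RNA removed in 2 rounds before library construction. Which rRNAs the probes covered is not given in the sources used here, so neither rRNA level can be read as the level in the ovary.

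With the rRNA genes set aside, the sum of the mRNAs was 3049 and 3303 CPM in piwi mutants and 1405 and 1948 CPM in their controls. The lower mutant library thus stood above the higher control library. In the RnpS1 series the mRNAs summed to 3469 and 2153 CPM in the knockdown libraries and to 2668 and 1399 CPM in their controls, which overlapped.

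**Figure D1:**
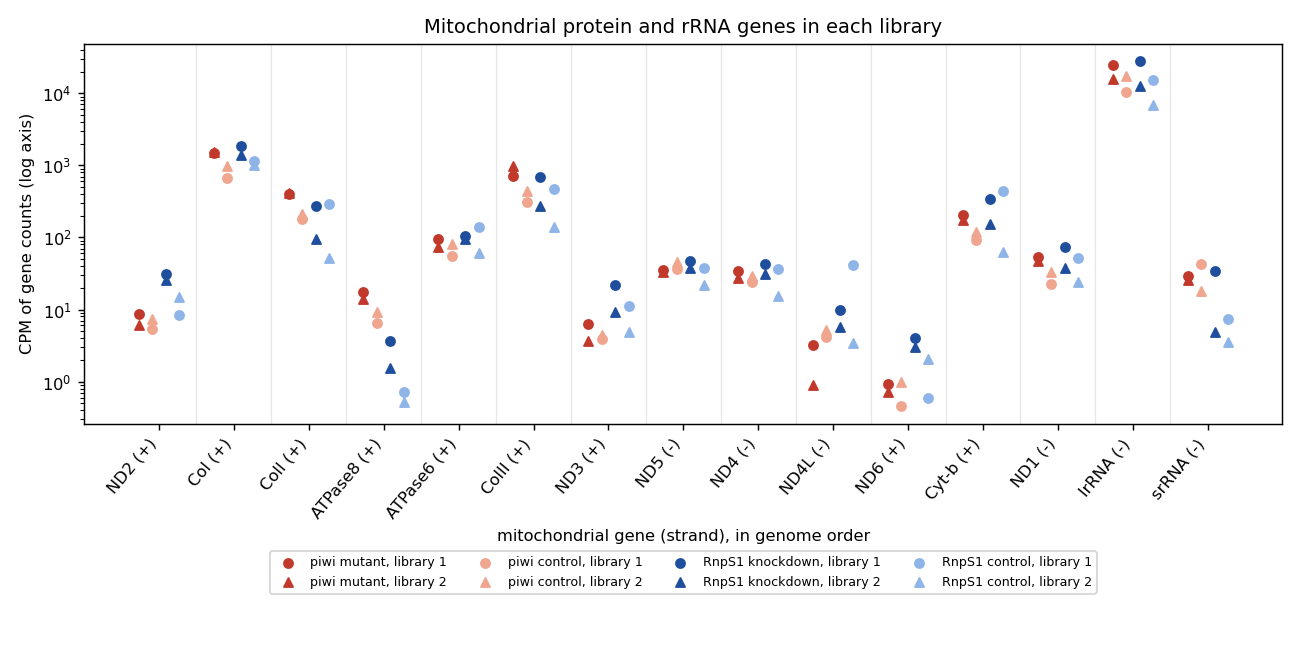
CPM (log axis) of the 13 protein and 2 rRNA genes in each of the 8 libraries, in genome order, with circles for replicate 1 and triangles for replicate 2. The levels of mt:CoI, mt:CoII and mt:CoIII in both piwi mutant libraries lie above those in both piwi controls, mt:ATPase8 is lowest in the RnpS1 controls, and 1 RnpS1 control library has 41.1 CPM of mt:ND4L.

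Per length, the order of the genes was much the same in the 4 groups at its ends and varied in the middle. By the group mean of CPM per kilobase, mt:lrRNA was first and mt:ND6 was last of 15 in every group. The mRNAs of mt:CoI, mt:CoII and mt:CoIII, the core subunits of cytochrome c oxidase (complex IV), held ranks 2 to 4 in every group. The level of mt:CoI, for example, was 978 ± 20.8 CPM per kilobase in piwi mutants and 534 ± 141 in their controls, and 1045 ± 205 in RnpS1 knockdown and 698 ± 70.2 in its control (SD, n = 2 each). These 3 mRNAs gave 71.3% to 88.4% of all mitochondrial mRNA counts. The 9 mRNAs of the plus strand gave 93.7% to 96.7%, and the 4 of the minus strand, mt:ND1, mt:ND4, mt:ND4L and mt:ND5, the rest.

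In the piwi mutants, the complex IV mRNAs were higher in both libraries than in both controls, but no mitochondrial gene passed the test in the fit over all 4 groups. Of the 37 members 20 entered the fit, but 4 of these, all tRNA genes, were at 0 in every library of the piwi series and could not differ there. Of the other 16, 0 were called higher and 0 lower by edgeR's quasi-likelihood test at an adjusted p of 0.05, against 6.37% of all 10434 tested genes called higher and 5.06% called lower. At an unadjusted p under 0.05 there was 1, mt:CoI, which was higher, where 17.1% of all tested genes were higher and 15.3% lower. DESeq2 called the same 1 gene (adjusted p = 0.00127), beside 12.5% of all tested genes called higher. The 15 protein and rRNA genes had a median log2 fold change of 0.16, against 0.01 over all tested genes. Libraries of both groups did not overlap in CPM for 6 of the 15 genes that were higher and 2 that were lower. Over all tested genes 45.6% were higher in this way and 18.5% lower, so the count of 6 of 15 is near that of genes at large.

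Cytochrome c oxidase passes electrons to oxygen at the end of the respiratory chain. Its catalytic core subunit, mt:CoI (FBgn0013674), had 1480 and 1525 CPM in the piwi mutant libraries, against 667 and 973 CPM in their controls. The log2 fold change was 0.72 (SE 0.204), with an edgeR adjusted p of 0.0648. Both mutant libraries were close together and above both controls. The copper-binding subunit mt:CoII (FBgn0013675) had 401 and 414 CPM in the mutant libraries and 182 and 208 CPM in the controls (log2 fold change 0.90, SE 0.743, edgeR adjusted p = 0.435). For mt:CoIII (FBgn0013676), the remaining core subunit, the levels were 711 and 980 CPM in the mutant libraries and 306 and 435 CPM in the controls (log2 fold change 1.03, SE 0.604, edgeR adjusted p = 0.279). In neither gene did mutants and controls overlap. The fit holds 1 estimate of the spread for all 4 groups, and for mt:CoII and mt:CoIII replicates lay farther apart in the RnpS1 series than in the piwi series. Fitted on the 2 groups of the piwi series alone, edgeR called both higher (adjusted p = 0.0148 for mt:CoII and 0.0416 for mt:CoIII), and mt:CoI had an adjusted p of 0.0506. In that fit 9.40% of all tested genes were called higher. It rests on 2 libraries a group, which leave few degrees of freedom to estimate the spread.

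Cytochrome b, mt:Cyt-b (FBgn0013678), the core subunit of complex III, had 205 and 176 CPM in the piwi mutant libraries, against 92.1 and 117 CPM in their controls, again without overlap (log2 fold change 0.71, edgeR adjusted p = 0.562, or 0.0350 with the 2 groups fitted alone). The ATP synthase (complex V) genes lie next to each other and, in the BDGP6 annotation, overlap by 7 bases. The short mt:ATPase8 (FBgn0013673), a membrane subunit, had 17.3 and 14.2 CPM in the mutant libraries and 6.44 and 9.32 CPM in the controls, with no overlap (log2 fold change 0.84, SE 0.457, edgeR adjusted p = 0.248). Its neighbour mt:ATPase6 (FBgn0013672), which forms part of the proton channel, had 93.9 and 73.7 CPM in the mutant libraries and 54.9 and 79.9 CPM in the controls, which overlapped (log2 fold change 0.16).

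Complex I, NADH dehydrogenase, takes electrons from NADH, and its mRNAs went in no common direction in the piwi mutants. The subunit mt:ND1 (FBgn0013679) had 53.1 and 47.4 CPM in the mutant libraries, against 22.6 and 32.9 CPM in the controls, without overlap (log2 fold change 0.70, edgeR adjusted p = 0.288). In the opposite direction, mt:ND5 (FBgn0013684) had 35.7 and 33.4 CPM in the mutant libraries and 36.3 and 45.8 CPM in the controls (log2 fold change -0.41, edgeR adjusted p = 0.313). The gap between the nearest libraries of mt:ND5 was small. Another low gene, mt:ND4L (FBgn0013683), had 3.23 and 0.903 CPM in the mutant libraries and 4.14 and 5.14 CPM in the controls (log2 fold change -1.33, SE 1.06, edgeR adjusted p = 0.421).

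The other 4 complex I mRNAs and both rRNAs overlapped between piwi mutants and controls. The level of mt:ND4 (FBgn0262952) was 34.1 and 27.7 CPM in the mutant libraries and 23.9 and 28.9 CPM in the controls. That of mt:ND2 (FBgn0013680) was 8.55 and 6.12 CPM in the mutant libraries and 5.32 and 7.34 CPM in the controls. These membrane subunits of the proton-pumping arm, with mt:ND3 and mt:ND6 of the same arm, had log2 fold changes between 0.04 and 0.09. For mt:ND3 (FBgn0013681) there were 6.21 and 3.69 CPM in the mutant libraries and 3.87 and 4.44 CPM in the controls. The scarce mt:ND6 (FBgn0013685) had 0.921 and 0.726 CPM in the mutant libraries and 0.454 and 0.973 CPM in the controls. All 4 thus lay within the range set by replicates. The rRNA mt:lrRNA had 24486 and 15964 CPM in the mutant libraries and 10516 and 17263 CPM in the controls (log2 fold change 0.38), and mt:srRNA had 29.4 and 25.8 CPM in the mutant libraries and 42.4 and 18.3 CPM in the controls (log2 fold change -0.30).

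**Figure D2:**
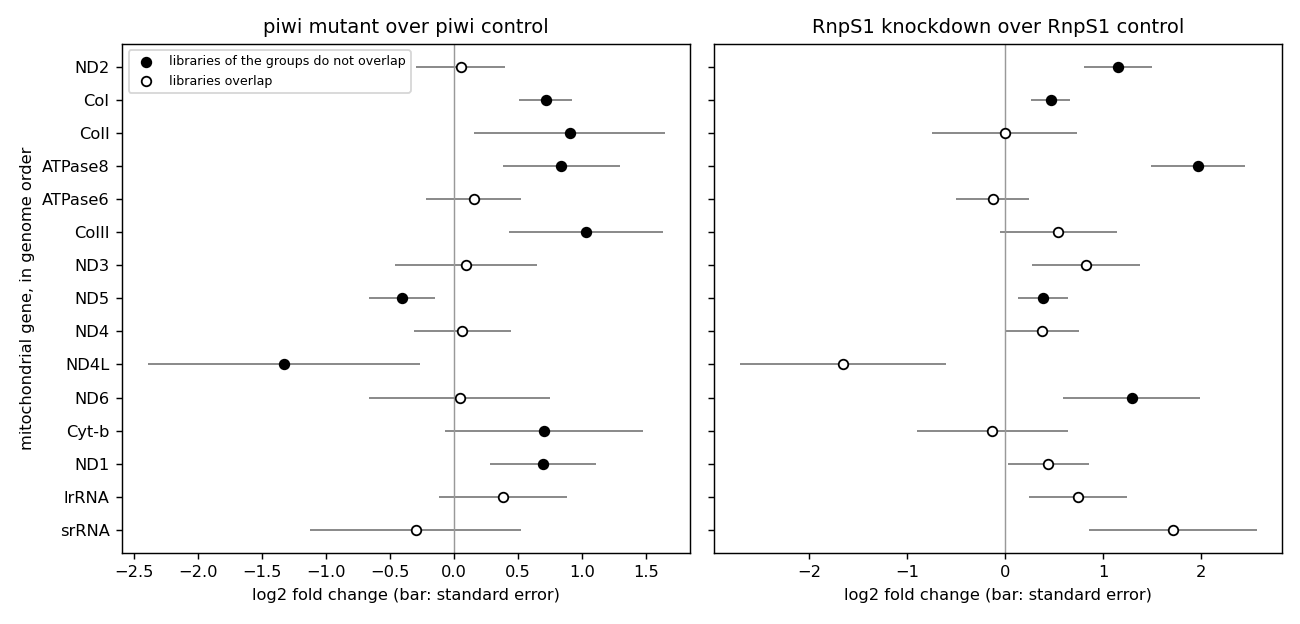
Log2 fold change with its standard error for the 15 protein and rRNA genes, in piwi mutants over their control (left) and RnpS1 knockdown over its control (right), with filled points where the libraries of the groups did not overlap in CPM. No gene passed the adjusted test in either panel, and the horizontal scales of the panels differ. CPM carries no TMM factor, whereas the fold changes do.

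Markers of several cell types differed between the same libraries. The 4 germline markers summed to 2168 and 2364 CPM in the piwi mutant libraries and 3055 and 2766 CPM in their controls, with osk called lower (log2 fold change -0.71, edgeR adjusted p = 0.0167) and bam higher (1.19, adjusted p = 0.0436). The 8 muscle markers measured, all with a count in every library, summed to 1415 and 2639 CPM in the piwi mutant libraries and 463 and 161 CPM in their controls. The 7 fat body markers summed to 353 and 1004 CPM in the mutants and 72.9 and 55.0 CPM in the controls, and the 5 haemocyte markers to 245 and 462 CPM in the mutants and 16.4 and 5.01 CPM in the controls. In the other direction, the 11 eggshell markers of late follicle cells summed to 159 and 1147 CPM in the mutants and 7692 and 6378 CPM in the controls. The 7 gut markers summed to 0.300 and 25.4 CPM in the mutants and 0.882 and 0.909 CPM in the controls, and the 7 testis markers to 6.58 and 9.34 CPM in the mutants and 1.74 and 2.07 CPM in the controls. In all of these lists but that of the gut, the mutant libraries did not overlap the controls. The 4 follicle cell markers summed to 134 and 140 CPM in the mutants and 138 and 76.9 CPM in the controls, which overlapped. Of these 4, 3 had a negative log2 fold change and 1 a positive one (median -0.82), and edgeR called 0. At 0 in both piwi controls were He of the haemocyte list, thetaTry of the gut list and ocn of the testis list. In 1 control Lsp1alpha, Lsp2 and Fbp1 (fat body), betaTry (gut) and can, sa, aly and dj (testis) were at 0. Among the mutants, thetaTry and ocn were at 0 in replicate 1 and dj in replicate 2. Of single markers edgeR called 0 of 8 higher for muscle, with 5 higher at an unadjusted p under 0.05. It called 3 of 7 higher for fat body, 3 of 5 for haemocytes, 0 of 7 for gut and 2 of 3 tested for testis. For eggshell it called 2 of 11 lower. Over all tested genes 6.37% were called higher and 5.06% lower, and 17.1% were higher at an unadjusted p under 0.05. The part of these markers in the levels of the mitochondrial genes was not tested.

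In the RnpS1 knockdown, no mitochondrial gene passed the test either. Of the 15 protein and rRNA genes, edgeR called 0 higher and 0 lower, against 0.882% of all tested genes called higher and 0.738% called lower. At an unadjusted p under 0.05 there were 2, mt:ND2 and mt:ATPase8, both higher, where 10.1% of all tested genes were higher and 8.07% lower. Of the 15 protein and rRNA genes, DESeq2 called the same 2 higher (adjusted p = 0.0189 for mt:ND2 and 0.0017 for mt:ATPase8), and 0 lower, beside 4.92% and 4.68% of all tested genes. The median log2 fold change of the 15 protein and rRNA genes was 0.46, against 0.01 over all tested genes. Libraries did not overlap in CPM for 5 of the 15 genes that were higher, against 34.2% of all tested genes, and for 0 that were lower, against 11.4%. The share of 5 in 15 is again near that of genes at large.

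The 2 genes past the unadjusted threshold encode a subunit of ATP synthase and one of complex I. For mt:ATPase8 there were 3.69 and 1.55 CPM in the knockdown libraries, against 0.706 and 0.516 CPM in their controls (log2 fold change 1.97, SE 0.482, edgeR adjusted p = 0.101). For mt:ND2 there were 30.8 and 26.0 CPM in the knockdown libraries, against 8.39 and 15.1 CPM in their controls (log2 fold change 1.15, SE 0.347, edgeR adjusted p = 0.154). In neither gene did the groups overlap. The other 3 genes without overlap were mt:CoI, mt:ND5 and mt:ND6. The level of mt:CoI was 1828 and 1382 CPM in the knockdown libraries and 1149 and 996 CPM in the controls (log2 fold change 0.46, SE 0.203, edgeR adjusted p = 0.288). That of mt:ND5 was 47.3 and 38.1 CPM in the knockdown libraries and 37.8 and 22.2 CPM in the controls, so its nearest libraries were close (log2 fold change 0.39). Scaled by the TMM normalization factors that the fit uses and CPM does not, these nearest libraries change order and the groups overlap. That of mt:ND6 was 4.09 and 2.98 CPM in the knockdown libraries and 0.586 and 2.08 CPM in the controls (log2 fold change 1.29).

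The remaining 10 genes overlapped between RnpS1 knockdown and control, several of them because libraries of 1 group lay far apart. The level of mt:CoII was 273 and 95.9 CPM in the knockdown libraries and 288 and 52.4 CPM in the controls. That of mt:CoIII was 685 and 275 CPM in the knockdown libraries and 466 and 140 CPM in the controls. That of mt:Cyt-b was 344 and 154 CPM in the knockdown libraries and 437 and 62.9 CPM in the controls. In all 3 the first library of each group was the higher one. The level of mt:ATPase6 was 105 and 94.0 CPM in the knockdown libraries and 140 and 60.3 CPM in the controls. For mt:ND3 the values were 22.1 and 9.22 CPM in the knockdown libraries and 11.4 and 4.89 CPM in the controls, and for mt:ND1 they were 72.7 and 38.1 CPM in the knockdown libraries and 51.1 and 23.9 CPM in the controls. The log2 fold changes of these 6 genes lay between -0.13 and 0.83, and the direction of mt:CoII was positive (0.12) where libraries were scaled by their totals alone.

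On the minus strand, mt:ND4 had 42.9 and 31.0 CPM in the knockdown libraries and 36.7 and 15.6 CPM in the controls. Its neighbour mt:ND4L had 9.71 and 5.68 CPM in the knockdown libraries and 41.1 and 3.38 CPM in the controls (log2 fold change -1.65, SE 1.05). The direction rested on replicate 1 of the control, and without it the log2 fold change was 1.05. The rRNA mt:lrRNA had 27832 and 12466 CPM in the knockdown libraries and 15185 and 6983 CPM in the controls (log2 fold change 0.74). For mt:srRNA there were 34.2 and 4.88 CPM in the knockdown libraries and 7.36 and 3.51 CPM in the controls (log2 fold change 1.71, SE 0.852). The muscle markers summed to 251 and 856 CPM in the knockdown libraries and 106 and 817 CPM in the controls, and the eggshell markers to 3018 and 9895 CPM in the knockdown libraries and 7002 and 14411 CPM in the controls. In both lists and in both groups replicate 2 was the higher library. The fat body markers summed to 126 and 107 CPM in the knockdown libraries and 84.9 and 150 CPM in the controls, and the haemocyte markers to 7.87 and 29.9 CPM in the knockdown libraries and 5.42 and 31.9 CPM in the controls. The gut markers ran the other way in the controls, at 25.3 and 37.7 CPM in the knockdown libraries and 164 and 0.433 CPM in the controls, with the high value in the library that has most mt:ND4L. The testis markers summed to 5.93 and 6.55 CPM in the knockdown libraries and 1.68 and 2.79 CPM in the controls. The follicle cell markers summed to 140 and 123 CPM in the knockdown libraries and 82.8 and 119 CPM in the controls, with the nearest libraries close. Of these 4 markers, 3 had a negative log2 fold change and 1 a positive one (median -0.90), and edgeR called 0. The part of all these markers in the results was not tested.

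The change in the RnpS1 knockdown was also tested against the change in the piwi mutants. Of the 16 tested members with a count in both series, edgeR called 0 higher and 0 lower in this difference of changes, against 0.288% and 0.364% of all tested genes. Of the 15 protein and rRNA genes, 0 had an unadjusted p under 0.05, against 6.94% and 8.38% of all tested genes. DESeq2 called 0 of these 15, against 3.24% and 4.32%. The lowest unadjusted p values of the edgeR fit were 0.0587 for mt:ND2 and 0.0635 for mt:ND5 (edgeR adjusted p = 0.347 and 0.357). A difference in response was therefore not detected with these libraries, which does not show that the responses were alike.

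Libraries of 1 group differed more in the mitochondrial genes than in genes at large. The median fold between replicates over the 15 protein and rRNA genes was 1.23 in piwi mutants and 1.42 in their controls, against 1.12 and 1.18 over all tested genes. It was 1.91 in RnpS1 knockdown and 2.32 in its control, against 1.22 and 1.20 over all tested genes. Within a group the genes mostly moved together: replicate 1 was the higher library for 12 of 15 genes in piwi mutants and 1 of 15 in their controls, and for 15 of 15 in RnpS1 knockdown and 13 of 15 in its control. The widest gap was that of mt:ND4L, which was 12.1-fold higher in replicate 1 than in replicate 2 of the RnpS1 control. In the same 2 libraries mt:Cyt-b differed 6.95-fold and mt:CoII 5.49-fold, in the same direction, and mt:ND6 was higher in replicate 2.

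The 2 controls carry neither a mutation nor a hairpin, and between them 1 mitochondrial gene passed the test. The level of mt:ATPase8 was 0.706 and 0.516 CPM in the RnpS1 control libraries, against 6.44 and 9.32 CPM in the piwi control libraries. The log2 fold change was -3.70 (SE 0.513, edgeR adjusted p = 0.0182, DESeq2 adjusted p = 7.76e-12). Its overlapping neighbour mt:ATPase6 showed no such fall (log2 fold change 0.56, edgeR adjusted p = 0.430). Of the 16 tested members with a count in both series, mt:ATPase8 was the 1 that edgeR called lower, where 2.15% of all tested genes were lower. None was called higher, where 1.71% of all tested genes were. At an unadjusted p under 0.05, mt:srRNA was also lower and mt:ND2 was higher, where 10.2% of all tested genes were lower and 11.2% higher. DESeq2 called no other protein or rRNA gene of the members between the controls, beside 6.69% of all tested genes lower and 7.26% higher. The call of mt:ATPase8 was lost when any 1 of the 4 control libraries was left out. The adjusted p was then 0.0609 without replicate 1 and 0.0713 without replicate 2 of the piwi control, and 0.0892 without replicate 1 and 0.0831 without replicate 2 of the RnpS1 control, with a log2 fold change between -3.93 and -3.42. Genotype and any difference in how the RnpS1 and piwi series were prepared cannot be told apart in this comparison.

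Libraries of the 2 controls did not overlap for 3 of 15 genes that were higher in the RnpS1 control (mt:ND2, mt:CoI and mt:ND3), against 25.5% of all tested genes. They did not overlap for 2 that were lower (mt:ATPase8 and mt:srRNA), against 22.7%. The values of mt:srRNA were 7.36 and 3.51 CPM in the RnpS1 control and 42.4 and 18.3 CPM in the piwi control. The median log2 fold change of the 15 genes was 0.37 between the controls, against 0.01 over all tested genes.

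The genes mt:ATPase8 and mt:ATPase6 are neighbours with no tRNA gene between them, so their ratio was taken within each library, where depth cancels. The former has 162 bases, and the 2 genes overlap by 7. How reads were assigned to so short a gene, or to the overlap, was not tested. The ratio can therefore not be read as that of 2 separate mRNAs. Per length, mt:ATPase8 over mt:ATPase6 was 0.767 and 0.802 in piwi mutants and 0.489 and 0.486 in their controls. The same ratio was 0.146 and 0.0685 in RnpS1 knockdown and 0.0209 and 0.0356 in its control. The ratio was higher in both mutant and both knockdown libraries than in their own controls, and all 4 libraries of the piwi series lay above all 4 of the RnpS1 series. The minus-strand neighbours mt:ND4L and mt:ND4 ran otherwise. Their ratio was 0.436 and 0.150 in piwi mutants and 0.796 and 0.817 in their controls, and 1.04 and 0.841 in RnpS1 knockdown and 5.14 and 1.00 in its control. For mt:ND6 over mt:Cyt-b, neighbours on the plus strand, the ratio was 0.00972 and 0.00892 in piwi mutants and 0.0107 and 0.0179 in their controls, and 0.0257 and 0.0420 in RnpS1 knockdown and 0.00290 and 0.0717 in its control. These ratios were picked for neighbouring genes and carry no test.

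**Figure D3:**
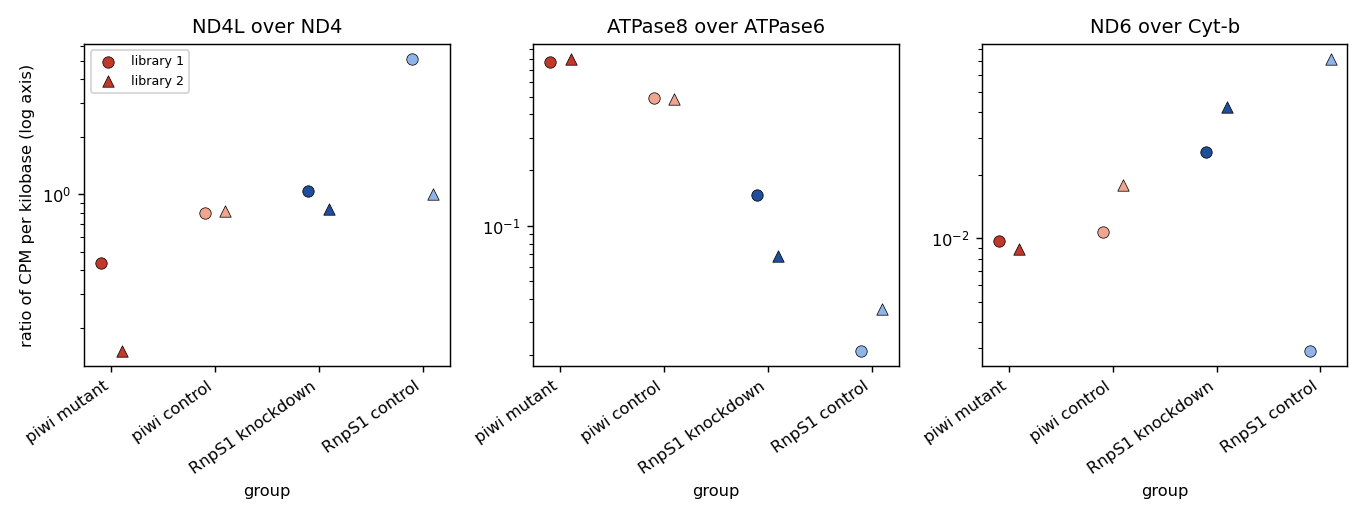
Ratio of CPM per kilobase (log axis) of 3 pairs of neighbouring genes in each library, with circles for replicate 1 and triangles for replicate 2 of each of the 4 groups. For mt:ATPase8 over mt:ATPase6 the 4 libraries of the piwi series lie between 0.486 and 0.802 and those of the RnpS1 series between 0.0209 and 0.146.

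The tRNA genes, whose products carry amino acids to the mitochondrial ribosome, had few counts, and these came mostly from the RnpS1 series. The 22 genes together had 9 and 20 counts in piwi mutant libraries and 9 and 20 in their controls. They had 285 and 196 counts in RnpS1 knockdown libraries and 100 and 58 in their controls. In the piwi series 19 of the 22 genes were at 0 in all 4 libraries, and the counts belonged to mt:tRNA:Pro-TGG and mt:tRNA:Tyr-GTA on the minus strand, with 1 count of mt:tRNA:Thr-TGT. A count of 0 allows up to 3 counts, or 0.0589 to 0.0802 CPM per library of the piwi series, which covers counting error only. In the RnpS1 series 3 genes were at 0 in all 4 libraries, mt:tRNA:Ile-GAT, mt:tRNA:Asn-GTT and mt:tRNA:Val-TAC, and these were at 0 in all 8.

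By mean CPM over the 8 libraries, the first 3 tRNA genes were mt:tRNA:Glu-TTC and mt:tRNA:Ala-TGC on the plus strand, with counts in the RnpS1 series alone, and mt:tRNA:Tyr-GTA on the minus strand. For mt:tRNA:Tyr-GTA there were 2 and 11 counts in piwi mutants and 5 and 6 in their controls, and 24 and 1 in RnpS1 knockdown and 0 and 10 in its control, so that in both series the groups overlapped. For mt:tRNA:Glu-TTC there were 73 and 51 counts in RnpS1 knockdown libraries and 20 and 7 in their controls. Scaled to total counts, this was a ratio of 3.49, with an exact 95% counting interval of 2.29 to 5.51. Such an interval pools the counts of each group and leaves out the spread between libraries. For mt:tRNA:Ala-TGC there were 50 and 18 counts in knockdown libraries and 48 and 6 in controls, a ratio of 0.957 (0.660 to 1.39). In the fit over all genes, 5 tRNA genes could be tested and none passed in the knockdown. Of these, mt:tRNA:Glu-TTC, mt:tRNA:Lys-CTT and mt:tRNA:Ser-GCT reached the filter on low counts through the knockdown libraries, where they were higher. Their test in this comparison is therefore not independent of the filter, and nothing is read from it.

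Between the controls, mt:tRNA:Ala-TGC had 48 and 6 counts in the RnpS1 control libraries and 0 in both piwi control libraries, and mt:tRNA:Glu-TTC had 20 and 7 counts in the RnpS1 control and 0 in both piwi controls. The 4 tested tRNA genes other than mt:tRNA:Tyr-GTA were at 0 throughout the piwi series and entered the fit through the RnpS1 libraries, so no test of them between the series is given. The 287 nuclear tRNA genes split the other way, with all 4 libraries of the piwi series above all 4 of the RnpS1 series. They summed to 7.24 and 9.52 CPM in piwi mutants and 4.57 and 2.52 CPM in their controls, and to 2.40 and 2.03 CPM in RnpS1 knockdown and 0.839 and 2.21 CPM in its control. Mature tRNAs are short, heavily modified RNAs that standard RNA libraries capture poorly, so these counts cannot be read as tRNA levels.

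**Figure D4:**
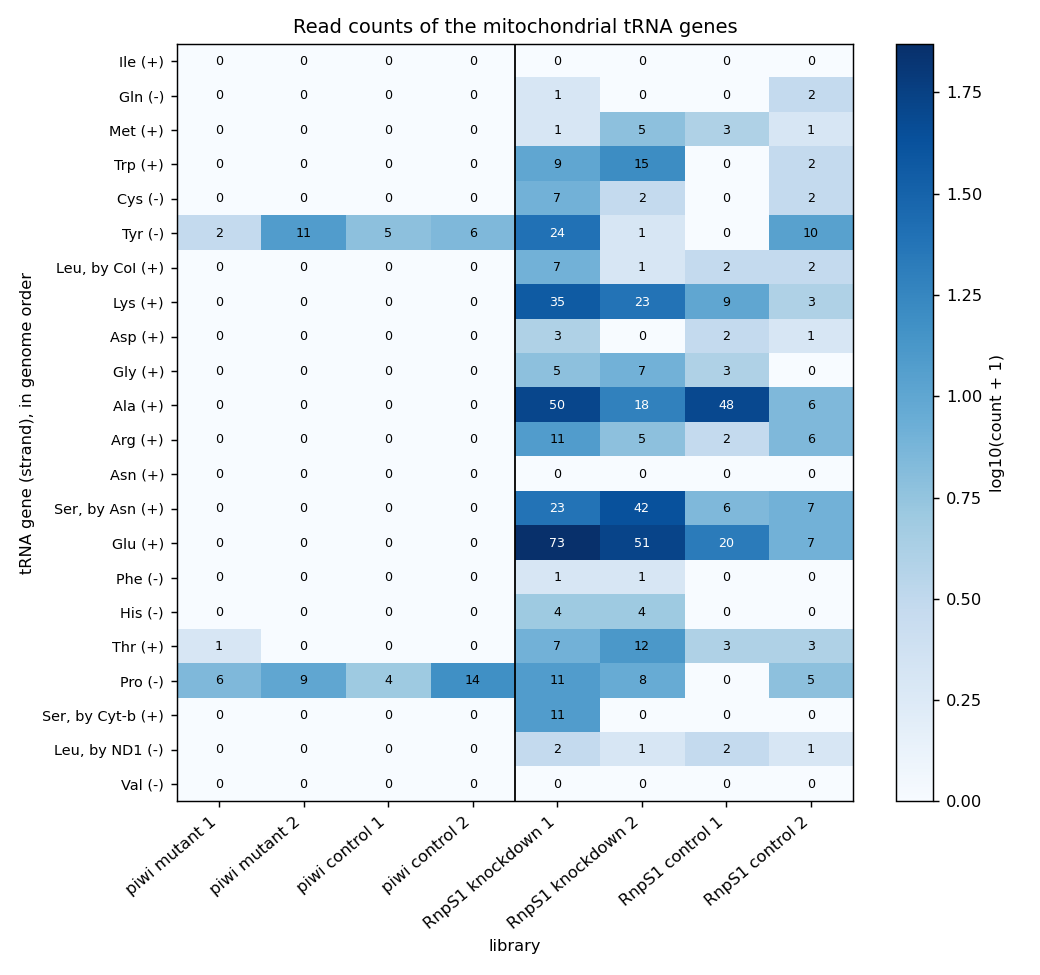
Read counts of the 22 mitochondrial tRNA genes (rows, in genome order, with the strand) in the 8 libraries (columns), printed in each cell and shaded by log10(count + 1). In the 4 piwi libraries, left of the line, counts above 1 occur only for Tyr and Pro, whereas in the 4 RnpS1 libraries 19 of the 22 genes have a count.

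Nuclear genes that build, replicate or express the mitochondrial genome were measured in the same fit, as 13 lists of 190 genes, of which 185 could be tested. In the piwi mutants 6 of them were called higher by edgeR, against 6.37% of all tested genes, and 4 lower, against 5.06%. Both shares were below those of genes at large. The 68 nuclear genes of the respiratory complexes and ATP synthase held 5 of the 6 higher ones and none that was lower, with 67 tested and a median log2 fold change of 0.10. The share of 5 in 67 is near the 6.37% of all tested genes called higher, and 0 lower compares with 5.06%. Highest was RFeSP, the Rieske iron-sulphur subunit of complex III, with 144 and 140 CPM in mutant libraries and 70.5 and 60.4 CPM in controls (log2 fold change 0.96, SE 0.174, edgeR adjusted p = 0.0229). COX4, a subunit of complex IV, had a log2 fold change of 0.57, ATPsynF of ATP synthase 0.49, and SdhD and SdhC, the membrane anchors of complex II, 0.49 and 0.48. Of the 33 tested nuclear genes of complex I edgeR called 0. At an unadjusted p under 0.05, 6 were higher, where 17.1% of all tested genes were. DESeq2 called 3 higher, where it called 12.5% of all tested genes higher. The remaining gene that rose was mRpS28, a protein of the small mitochondrial ribosomal subunit (log2 fold change 0.72), alone among 70 tested ribosomal proteins.

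The 4 that fell in the piwi mutants were 2 of 4 tested genes of mitochondrial DNA replication (list median log2 fold change -0.25), 1 of 6 of mitochondrial transcription (-0.04) and 1 of 8 of mitochondrial dynamics and quality control (-0.12). The helicase gene mtDNA-helicase, which unwinds the mitochondrial genome for replication, had 42.8 and 40.8 CPM in mutant libraries and 58.5 and 64.3 CPM in controls (log2 fold change -0.71, SE 0.114, edgeR adjusted p = 0.0181). PolrMT, the mitochondrial RNA polymerase, had 83.9 and 89.0 CPM in mutant libraries and 113 CPM in both controls (log2 fold change -0.54, SE 0.0976, edgeR adjusted p = 0.0227). PolG1, the catalytic subunit of the mitochondrial DNA polymerase, had a log2 fold change of -0.39, and milt, an adaptor for transport of mitochondria along microtubules, of -0.44. In the lists for translation factors (7 tested), import, carriers and chaperones (6) and the TCA cycle (9), edgeR and DESeq2 both called 0. At an unadjusted p under 0.05 there were 2, both lower translation factors. Among 8 tested genes of RNA processing and stability edgeR called 0, with 2 higher and 1 lower at an unadjusted p under 0.05. DESeq2 called 1 higher and 1 lower there. Over all tested genes 17.1% were higher and 15.3% lower at an unadjusted p under 0.05. DESeq2 called 12.5% of them higher and 11.3% lower. All 10 calls were lost when any 1 of the 4 libraries of the piwi series was left out, with 0 higher and 0 lower each time. The calls over all genes fell to 27 to 194 in those 4 fits, against 1193 with all libraries, and no log2 fold change of the 10 genes turned its sign (that of RFeSP lay between 0.85 and 1.10 over all fits with a library left out). The muscle, fat body, haemocyte and eggshell sums given above moved with this comparison as well, and their part in it was not tested.

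In the RnpS1 knockdown edgeR called 0 of the 185 genes higher and 0 lower, against 0.882% and 0.738% of all tested genes. At an unadjusted p under 0.05 there were 1 higher and 8 lower, where 10.1% of all tested genes were higher and 8.07% lower. DESeq2 called 0 higher and 1 lower, where it called 4.92% and 4.68% of all tested genes. Between the controls edgeR called 4 higher and 1 lower, against 1.71% and 2.15% of all tested genes, and DESeq2 called 19 higher and 10 lower, against 7.26% and 6.69%. Those of edgeR were ATPsynF (log2 fold change 0.97), mRpS28 (0.98), SdhD (0.62) and COX7C (0.58), and PolG1 (-0.48). This comparison shares the piwi control libraries with that of the piwi mutants, in which the same values of ATPsynF, mRpS28, SdhD and PolG1 were used. ATPsynF, for example, had 90.6 and 102 CPM in piwi mutants, 122 CPM in both RnpS1 controls, and 58.8 and 64.3 CPM in piwi controls.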

How the data were processed

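The values are read counts per gene, deposited by the authors as 1 unnormalized table per library. The submitters' processing notes name TopHat2 2.0.9, HTSeq 0.5.3p9, CASAVA 1.8 and 1.8.2, DESeq, and the builds BDGP5 and dm3. Per the labels' protocols, RNA was extracted with Trizol, depleted of ribosomal RNA in 2 rounds, and made into strand-specific libraries. Rows naming no gene were left out throughout: reads outside genes were 1.91% to 10.7% and ambiguous reads 1.19% to 1.63% of gene counts plus these 2 kinds. Symbols, strand, gene order and length came from the later BDGP6 release, in which 15002 of 15682 identifiers have a symbol; no coordinates are given. Of the symbols in the lists 12 had no match.

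CPM is a count over the sum of gene counts. Differences were tested with edgeR 4.0.16 in R 4.3.3, quasi-likelihood, in 1 fit over 8 libraries with a term per group, on the 10434 genes kept by filterByExpr, with TMM factors and Benjamini-Hochberg adjustment over all tested genes. Of the 37 members 20 were tested. CPM carries no TMM factor, so a log2 fold change can differ from the ratio of CPM values. The factors ran from 0.943 to 1.06. They were above 1 in all mutant and knockdown libraries and below 1 in all controls, so CPM places the former relatively higher. No replicates were identical, and their chi-square over degrees of freedom was 57.9 to 328. The scripts were tested on simulated data. Every protein and rRNA gene was named, tRNA genes as the 3 highest and lowest by mean CPM, and genes of the nuclear mitochondrial lists by an adjusted p below 0.05. The members and lists were chosen with earlier results of these data known. Alternatives were library totals alone, DESeq2 1.42.0, library sizes without mitochondrial genes, no filter on low counts, the 2 groups alone, a replicate block, and each library left out.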

Additional observations from a re-analysis of the deposited data

How the results depend on the processing

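Between 1 and 7 mitochondrial genes were called higher in the piwi mutants under some alternatives, against 0 as reported. There was 1 with library totals alone (7.80% of all tested genes) and 1 with DESeq2 (12.5%). With the 2 groups fitted alone there were 3, mt:CoII, mt:CoIII and mt:Cyt-b (9.40%). In the RnpS1 knockdown DESeq2 called 2 higher (4.92%). Between the controls, 0 to 1 were called lower when a library was left out. The cause was not tested. Library totals alone moved the median log2 fold change of all genes to 0.17 (piwi) and 0.12 (RnpS1).

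Replicate numbers were not taken as pairs in the main fit. Over all tested genes, the deviations of same-numbered libraries correlated at -0.136 (piwi) and 0.174 (RnpS1). Of the 15 protein and rRNA genes, replicate 1 was higher for 15 in RnpS1 knockdown and for 13 in its control. Whether same-numbered libraries of that series share a source was not tested. With the replicate block, 0 members were called in either study comparison, mt:ATPase8 was still called between the controls, and signs turned for mt:ND3 in piwi mutants (-0.026) and for mt:CoII (0.11) and mt:Cyt-b (0.071) in the RnpS1 knockdown. Listed nuclear genes called in the piwi mutants were then 2 higher and 2 lower. Of all tested genes 3.66% were higher with this block, and 277 of 10434 were lower. A crossed pairing, chosen after seeing the data, called 7 mitochondrial and 12 listed nuclear genes higher, where 14.6% of all tested genes were higher. It called 9 listed nuclear genes lower, where 1277 of 9759 tested genes were lower.

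For the listed nuclear genes in the piwi mutants, 10 were higher with library totals alone (7.80% of all tested genes) and 12 with DESeq2 (12.5%). With totals alone 2 were lower, where 200 of 10434 tested genes were lower. With no filter on low counts 2 were lower, where 438 of 14299 tested genes were lower. Leaving out 1 library gave 0 to 6 higher and 0 to 2 lower. In the RnpS1 knockdown DESeq2 called 1 lower, where it called 4.68% of all tested genes lower.

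With rRNA left out, the mitochondrial share was 0.324% in piwi mutants, 0.170% in piwi controls, 0.288% in RnpS1 knockdown and 0.206% in RnpS1 controls.

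Leaving out 1 library in turn reversed uncalled log2 fold changes. In piwi mutants the ranges were -0.18 to 0.31 (mt:ND2), -0.068 to 0.45 (mt:ATPase6), -0.31 to 0.41 (mt:ND3), -0.070 to 0.21 (mt:ND4), -0.38 to 0.70 (mt:ND6) and -0.78 to 0.46 (mt:srRNA). In the RnpS1 knockdown they were -0.93 to 1.68 (mt:CoII), -0.61 to 0.60 (mt:ATPase6), -0.24 to 1.64 (mt:CoIII), -0.11 to 1.12 (mt:ND4), -2.54 to 1.05 (mt:ND4L), -0.94 to 1.85 (mt:Cyt-b), -0.085 to 1.08 (mt:ND1) and -0.26 to 2.52 (mt:srRNA). A group with 1 library left was assumed to vary like the others.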
